A study of Mus musculus with 45 samples.

Results

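Cultured hepatic stellate cells (HSCs) were compared between day 8 and day 4 on plastic, the interval in which activated cells become established in the culture. The comparison was defined by the sample labels alone and holds 6 of the 45 libraries, with 3 replicates (A, B and C) at each day. The HSCs came from mice labelled C57BL6/J (C57BL/6JBomTac in the study's methods), were isolated and sorted by FACS, and were kept in DMEM with serum, antibiotics and amphotericin. The culture series also has 3 libraries each of a suspension control kept for 2 hours (d0) and of cells at day 1 (d1) and day 12 (d12). In the mouse experiments, HSCs were sorted from male mice of the same strain fed a Western diet with fructose in the drinking water (WD) for 12, 16 or 24 weeks or chow, with 4 libraries per group. A separate cohort received the hepatotoxic solvent CCl4, with 3 libraries at 1 week, 4 at 4 weeks and 3 at 8 weeks, or vehicle, with 4 libraries. As a model, the culture shows HSCs on plastic, outside the liver and apart from its other cells. The study's methods call the cultures technical triplicates and the sequenced RNA biological replicates. P-values of the culture therefore measure the spread between these libraries, which may be technical.

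Quiescent HSCs are pericyte-like cells of the liver sinusoid that store retinoids in lipid droplets, which also give the autofluorescence used for sorting. When activated, in injured liver or on a stiff plastic surface, they lose these droplets, start to divide and turn into contractile myofibroblasts that secrete collagen and other extracellular matrix proteins. The comparison asks which transcripts still change after the first days of that conversion, and whether they change in the same direction in HSCs activated inside the liver. The mouse cells were sorted by autofluorescence after treatment, the cultured cells before they were plated. The paper states that sorting missed HSCs and myofibroblasts depleted of retinoids. It holds that the shift in advanced steatohepatitis is likely underestimated, which limits the comparison of culture and mice.

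The deposited values were exon read counts per gene. The table of each experiment lists 23999 genes, one per row. The identifiers printed beside the counts do not belong to them, so rows are called here by their place in the table (row 1 is the first gene) and no gene is named. In the 6 libraries of d4 and d8, the counts listed at Actb, B2m, Ppia, Col1a1 and Timp1 were all 0, and the count at Des, a marker of HSCs, was at most 2. At Alb, a hepatocyte gene, the listed count was between 1951 and 2329. Other listed genes of HSCs and of all cells had intermediate counts, such as Lrat (422 to 519), Vim (381 to 527), Col1a2 (289 to 410), Acta2 (157 to 209), Gapdh (1523 to 1828) and Rplp0 (917 to 1151). Genes of families that are mostly silent in liver had a mean count below 1 in 37.2% of 1627 rows, against 35.9% of all 23659 rows with a symbol. For the same reason, the HSC identity of the cells and the presence of hepatocyte or macrophage transcripts could not be checked against markers. The roles of the rows, their sequences and their pathways were not analysed here.

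Total counts of the d4 and d8 libraries ranged from 6659701 to 7568415, and the 10 highest rows held between 1.90% and 2.06% of them. A count of 3, taken as the floor, corresponded to between 0.381 and 0.436 CPM, the unit of counts after scaling each library by its TMM-adjusted total. The floor covers counting error only, since copies of one fragment are not independent molecules. Libraries of the same day were close to each other, with Pearson's r of log2(CPM + 1) from 0.9954 to 0.9960 across rows, against 0.9713 to 0.9726 between the days. The Euclidean distance over all tested rows was between 23.1 and 24.8 within a day and between 61.4 and 62.6 across the days. None of the 6 libraries stood apart from its group.

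From d4 to d8, 2065 rows rose and 1803 rows fell. These were 15.1% and 13.2% of the 13655 rows tested, or 28.3% together. A row was called at a Benjamini-Hochberg FDR of at most 0.05 in edgeR's quasi-likelihood test and a mean log2CPM above 2 over both days. Most changes were small. The median log2FC was 0.50 for rising rows, with quartiles of 0.32 and 0.94, and -0.42 for falling rows, with quartiles of -0.63 and -0.29. Strong changes were mostly increases, with 155 rows rising and 26 falling at least 4-fold (1.14% and 0.19% of those tested). At least 2-fold changes were found in 479 rising and 172 falling rows (3.51% and 1.26%). The 3 libraries of d8 all lay above or all below those of d4 in 2058 of the 2065 rising and 1798 of the 1803 falling rows, and in 58.3% of all tested rows. In a bulk library, a rise in a cell's transcript and a rise in the share of cells that hold it cannot be told apart.

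Among called rows, the size of the change fell with the level of the row. A row with few counts needs a larger change to be called, so this describes the called rows only. The counts also hold at most 3 reads per position, a cap that can compress changes of abundant rows. Its effect was not tested. Among called rows with a mean log2CPM of 2 to 4, the median absolute log2FC was 0.95, and among rows above 8 it was 0.28. The share of rows at or below the FDR threshold was similar in these bins, at 35.3% and 35.8%. The number of called rows depended on the d0 libraries, which enter the shared estimate of the spread and were the most variable of the culture, with distances of 44.8 to 66.0 within the group. Without them, 3178 rows rose and 3133 fell.

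**Figure D1:**
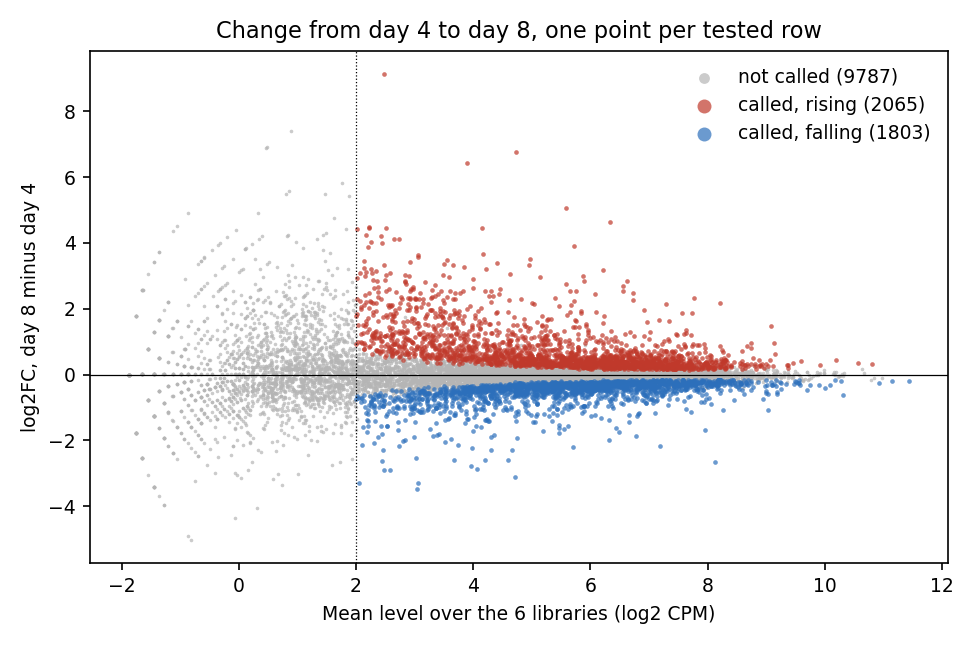
Each point is 1 of the 13655 tested rows, with its mean level over the 6 libraries (log2CPM) on the horizontal axis and its log2FC from d4 to d8 on the vertical axis. The dotted line marks the level threshold of 2. The 2065 rising rows (red) reach further from 0 than the 1803 falling rows (blue), and changes narrow towards high levels. The fitted log2FC of the topmost point, row 8881, has no meaning as a size because all 3 of its d4 libraries are at 0.

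The 5 rows with the strongest increases had means of 0 to 6.25 CPM at d4. Row 8881 had no read in any library of d0, d1 or d4, and was at 10.7, 8.73 and 12.2 CPM in the d8 libraries. All d8 libraries were above the floor, and their mean of 10.5 CPM was at least 25.7-fold higher than 3 counts in each d4 library (FDR 1.48e-07). The level rose further to 19.3 CPM at d12. Row 15078 was at 0.390, 0.558 and 0.422 CPM at d4 and at 50.4, 50.6 and 54.4 CPM at d8, a log2FC of 6.77 ± 0.21 (SE, FDR 5.3e-12). The groups were far apart, although the d4 values lie near the floor.

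Row 5079 was at 0.390, 0.139 and 0.422 CPM at d4 and at 32.2, 27.2 and 26.9 CPM at d8 (log2FC 6.42 ± 0.27, FDR 1.39e-10). Its mean at d12, 28.9 CPM, differed from that of d8 by less than the spread, with a log2FC of 0.0033 for the last step (FDR 0.992). This row reached its plateau within the interval. Row 18781 was at 3.12, 3.07 and 2.11 CPM at d4 and 90.2, 94.8 and 94.0 CPM at d8 (log2FC 5.06 ± 0.12, FDR 7.61e-12), and row 1886 at 5.72, 5.58 and 7.46 CPM and 153, 157 and 154 CPM (log2FC 4.63 ± 0.11, FDR 3.37e-14). Unlike row 5079, both went on rising to d12, to means of 196 and 425 CPM. In mice, rows 8881 and 18781 had at most 2 counts in any library and row 5079 at most 11, so these rows could not be compared with activation in the liver. Row 15078 had 1 count over the 4 vehicle libraries and 33 over the 3 libraries of 8 weeks of CCl4 (FDR 0.000341), with at most 5.86 CPM in any mouse library. Row 1886 was at 0 in every vehicle library and at 12.5, 5.93 and 5.82 CPM after 8 weeks of CCl4, at least 9.97-fold higher than the floor of 3 counts in a library (FDR 4.87e-06). It was also higher after 24 weeks of WD (log2FC 3.68 ± 1.03, FDR 0.00954), with 4 counts over the control libraries and 57 over the WD libraries.

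The 5 rows with the strongest decreases had been higher at d0, with means from 49.9 to 1225 CPM. Row 12893 was at 14.2, 14.1 and 15.6 CPM at d4 and 0.999, 1.16 and 1.65 CPM at d8, a log2FC of -3.49 ± 0.27 (FDR 3.74e-08). It had started at a mean of 1225 CPM at d0 and 132 CPM at d1, so most of its decline came before the interval. The further step to d12 did not pass the test (log2FC -1.25, FDR 0.117). Row 453 went from 5.85, 7.53 and 7.74 CPM to 0.999, 0.727 and 0.381 CPM (log2FC -3.31 ± 0.36, FDR 1.63e-06). Its d8 libraries were close to the floor, so the size of the fall has little precision.

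Row 14158 fell from 14.7, 13.8 and 15.6 CPM to 1.14, 1.75 and 1.52 CPM, with a log2FC of -3.31 ± 0.24 (FDR 1.36e-08). It did not fall further, with 1.76 CPM at d12, and its change differed between this step and the next (FDR 0.000299). Row 7147 fell from 48.5, 42.2 and 48.4 CPM to 4.14, 5.82 and 6.09 CPM (log2FC -3.11 ± 0.16, FDR 1.39e-10). This row had kept 542 CPM at d1 from 865 CPM at d0, so its loss was later than that of row 12893. Row 20153 fell from 10.9, 9.48 and 7.74 CPM to 1.43, 1.16 and 1.14 CPM (log2FC -2.90 ± 0.31, FDR 1.35e-06). In mice, all of the rows with the strongest decreases were lower after 8 weeks of CCl4 (log2FC -2.52 to -1.27, FDR at most 0.000392). After 24 weeks of WD, rows 453 and 20153 were lower (log2FC -1.57, FDR 0.0242, and -0.71, FDR 0.0251). Rows 12893, 14158 and 7147 did not pass the test there (FDR 0.101, 0.512 and 0.0681).

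**Figure D2:**
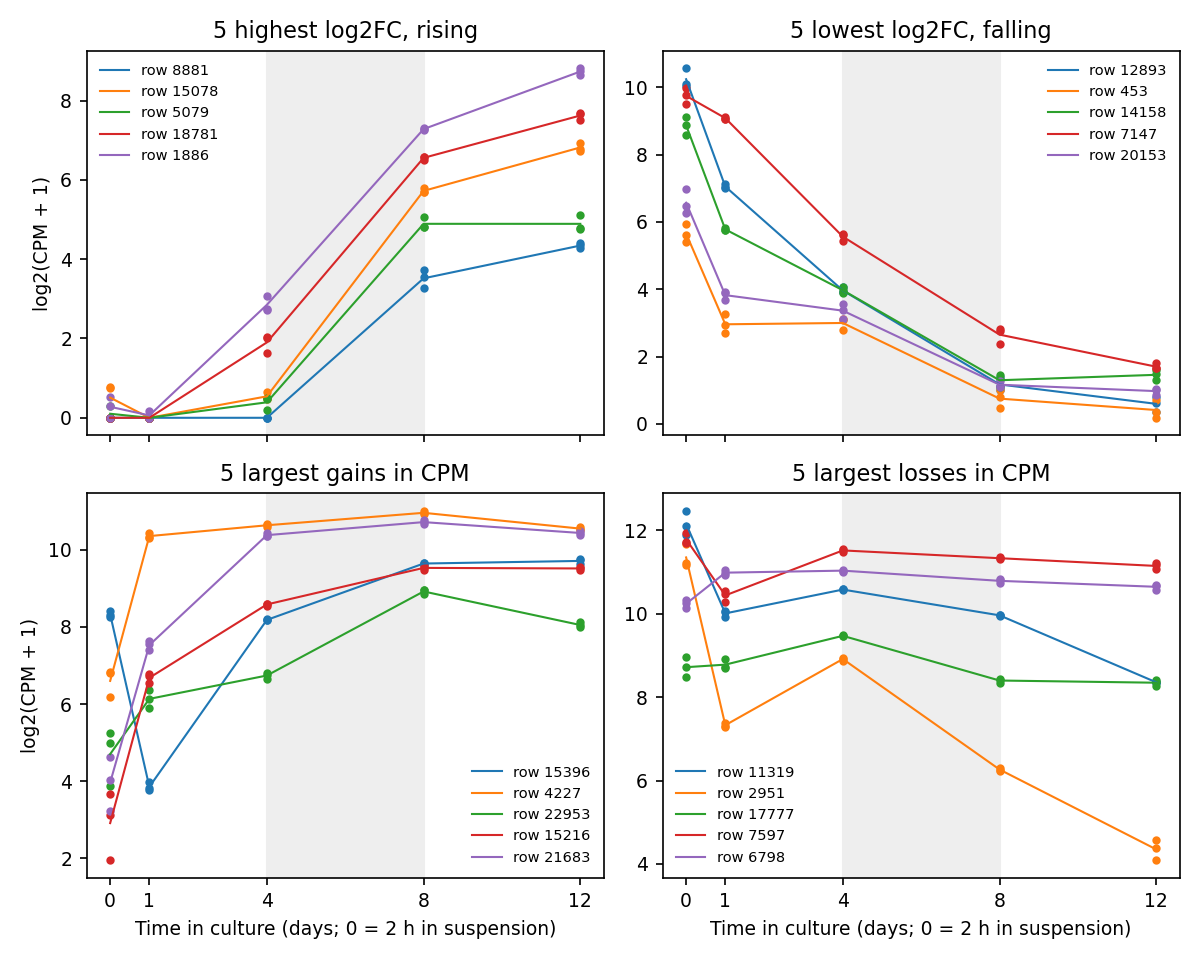
Log2(CPM + 1) of 20 rows over the culture, with time in days on the horizontal axis, a point per library, a line through the means of each day and the interval from d4 to d8 shaded. The upper panels show the 5 rows with the highest and the 5 with the lowest log2FC, and the lower panels those with the largest gain and loss of mean CPM. Rows of the upper left panel lie near 0 until d1 and below 3.1 at d4, rows of the upper right panel decline from d0, and the lower panels show changes of rows that were abundant at both days.

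By CPM rather than the fold, the largest gain was in row 15396. It was at 292, 287 and 290 CPM at d4 and 806, 812 and 779 CPM at d8 (log2FC 1.46 ± 0.06, FDR 1.03e-11). This row had dropped from 321 CPM at d0 to 13.5 CPM at d1 before it returned. In mice it was lower after treatment, with a log2FC of -1.97 ± 0.52 at 24 weeks of WD (FDR 0.00677) and -1.15 ± 0.51 at 8 weeks of CCl4, which did not pass the test (FDR 0.0713). Row 22953 rose from 100, 106 and 111 CPM to 494, 496 and 461 CPM (log2FC 2.19 ± 0.16, FDR 1.31e-08) and was back at 264 CPM at d12. The fall of this row after d8 passed the test (log2FC -0.87 ± 0.15, FDR 0.000392), and the changes of the consecutive steps differed by 3.06 on the log2 scale (FDR 2.16e-07).

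Row 15216 rose from 372, 387 and 389 CPM to 742, 767 and 708 CPM (log2FC 0.95 ± 0.11, FDR 3.67e-06) and stayed at 731 CPM at d12. Row 4227, at 1553, 1615 and 1601 CPM at d4, rose to 1974, 2062 and 1931 CPM (log2FC 0.32 ± 0.09, FDR 0.0146), and row 21683 from 1307, 1378 and 1309 CPM to 1676, 1740 and 1633 CPM (log2FC 0.34 ± 0.12, FDR 0.0371). In both rows the days did not overlap. In mice, the other 4 rows of largest gain were higher after 8 weeks of CCl4, with no overlap of groups. Row 22953 was at 0 to 1.12 CPM with vehicle and 57.5 to 133 CPM with CCl4, and at 0 to 0.183 CPM with chow and 24.8 to 107 CPM after 24 weeks of WD. Row 15216 was at 0 to 0.225 CPM with vehicle and 144 to 160 CPM with CCl4, and at 0 to 0.518 CPM with chow and 11.3 to 19.0 CPM with WD. Row 4227 had a log2FC of 3.26 ± 0.37 with CCl4 (FDR 2.62e-06) and 1.5 ± 0.5 with WD (FDR 0.0239), and row 21683 of 6.92 ± 0.52 (FDR 2.59e-08) and 1.15 ± 0.49, the last not past the test (FDR 0.0659).

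The culture calls of rows 4227 and 21683 were sensitive to single libraries. Without d4 replicate A or d8 replicate B the FDR of row 4227 was 0.0592 or 0.0622, and without any one of the 6 libraries that of row 21683 was between 0.0752 and 0.12.

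The largest loss of CPM was in row 11319. It went from 1510, 1545 and 1542 CPM to 986, 997 and 1010 CPM (log2FC -0.62 ± 0.10, FDR 8.37e-05) and then to 327 CPM at d12. The second step was the steeper one, with a difference of 0.99 between the steps (FDR 0.000408). Row 2951 went from 470, 482 and 494 CPM to 75.2, 74.2 and 78.3 CPM (log2FC -2.67 ± 0.12, FDR 3.13e-11) and row 17777 from 702, 722 and 703 CPM to 325, 347 and 339 CPM (log2FC -1.07 ± 0.09, FDR 7.07e-08). Both were lower in every d8 library than in any d4 library, and row 17777 had not changed detectably between d0 and d1 (log2FC 0.05, FDR 0.636).

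The 5 most abundant rows of the 6 libraries changed little in these counts. The cap of 3 reads per position can hold down both their counts and their changes, which was not tested. Row 7597, the highest, was at 2874, 2992 and 2952 CPM at d4 and 2580, 2615 and 2552 CPM at d8 (log2FC -0.19 ± 0.07, FDR 0.0482), a call that was lost when any one of the 6 libraries was left out (FDR 0.0801 to 0.125). Row 6798 went from 2061, 2136 and 2102 CPM to 1788, 1825 and 1704 CPM (log2FC -0.24 ± 0.06, FDR 0.00286), and row 3948 from 2367, 2450 and 2405 CPM to 2117, 2156 and 2017 CPM (log2FC -0.20 ± 0.06, FDR 0.0252, and 0.051 to 0.104 when any library other than d8 replicate B was left out). For rows 10949 and 9778, the log2FC was -0.10 ± 0.09 (FDR 0.435) and -0.12 ± 0.06 (FDR 0.163), which did not pass the test.

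As a set, the rising rows held between 14.13% and 14.18% of all counts in the d4 libraries and between 19.59% and 19.65% in the d8 libraries. The falling rows went from between 20.11% and 20.27% to between 15.35% and 15.52%. These shares describe rows chosen on the same contrast. The other culture libraries entered the choice only through the filter on low counts, the scaling and the estimate of the spread. In them, the rising rows held 12.6% to 13% at d0, 12.45% to 12.59% at d1 and 20.59% to 20.87% at d12. The falling rows held 24.3% to 25.4% at d0, 19.6% to 20.0% at d1 and 14.2% to 14.4% at d12. Both sets were thus at d12 beyond their d8 shares in the direction of the interval, and the rising rows were slightly lower at d1 than at d0.

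The 155 rows that rose at least 4-fold held between 0.095% and 0.098% of the counts at d4 and between 0.576% and 0.592% at d8. They had held 0.023% to 0.032% at d0 and 0.034% to 0.036% at d1, and reached 0.739% to 0.765% at d12. At d0, 56 of the 155 rows had a mean of at least 1 CPM, compared with 58 at d1, 131 at d4 and all 155 at d8. The 26 rows that fell at least 4-fold held 1.15% to 1.38% at d0, 0.163% to 0.166% at d1, 0.129% to 0.136% at d4, 0.022% to 0.024% at d8 and 0.0096% to 0.0098% at d12. Most of their transcript was thus lost before d1, and the loss from d4 to d8 was a late part of it.

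**Figure D3:**
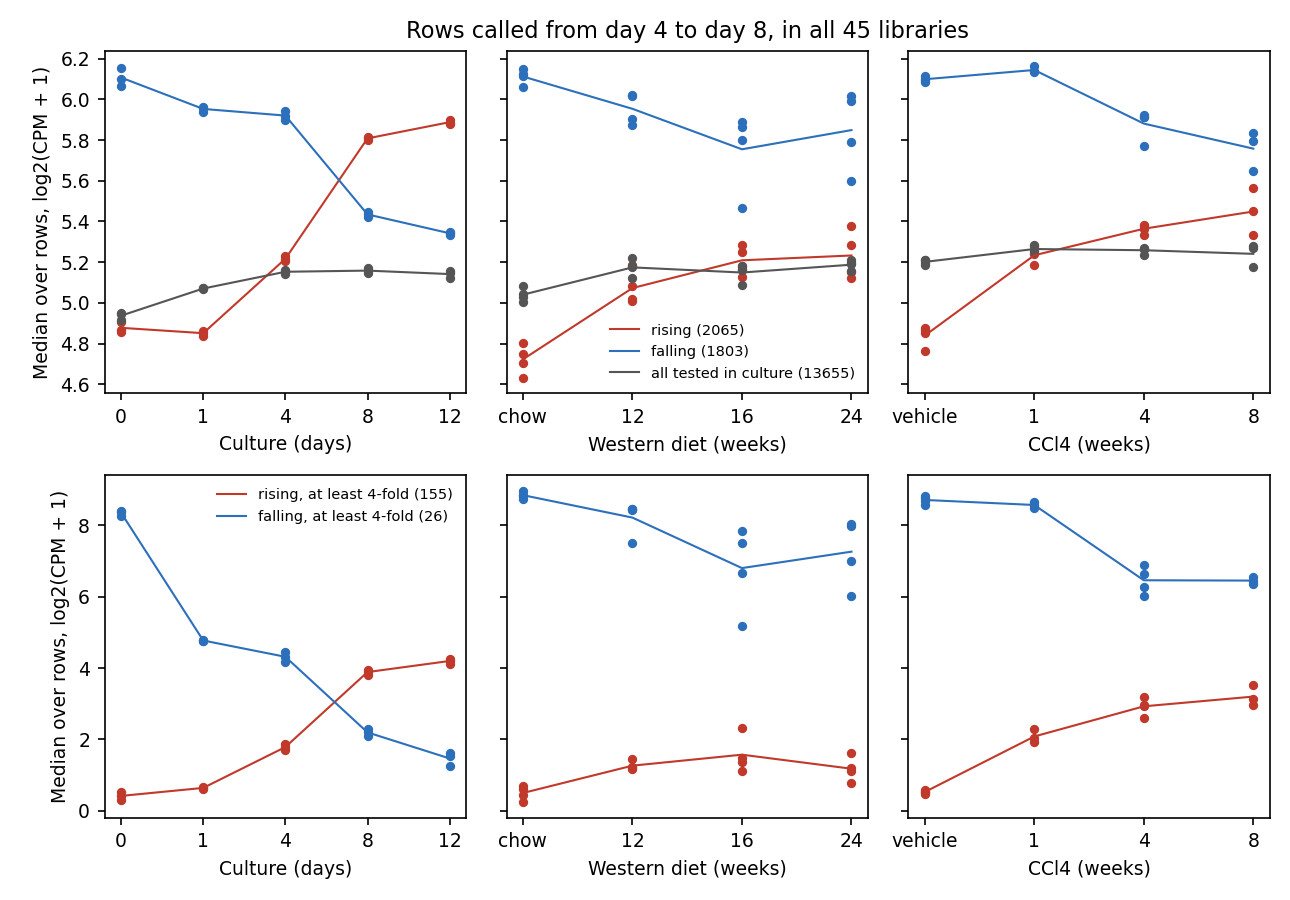
Median log2(CPM + 1) over the rows called from d4 to d8, one point per library in all 45 libraries, with lines through the group means and the time of culture, diet or CCl4 on the horizontal axes. The upper panels show the 2065 rising, the 1803 falling and all 13655 rows tested in culture, and the lower panels those changed at least 4-fold, counting every row whether or not it passed the filter in the mouse tables. In the mouse experiments the rising rows lie lowest and the falling rows highest in the control groups or near them.

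The interval was compared with the 4 days that followed. The changes from d4 to d8 and from d8 to d12 differed in 1728 rows (12.7% of those tested), by the contrast of the steps in the same fit. In 1151 of them the first step was the higher, with a median log2FC of 0.65 against -0.28 in the second. In the other 577 rows the first step was the lower, with medians of -0.43 and 0.28. These medians describe rows chosen for the difference. This count rested on the d8 libraries, which enter both steps. Without d8 replicate A, B or C it was 1002, 1031 or 1053, and without the d0 libraries it was 4100.

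The last step had fewer strong changes. From d8 to d12, 1472 rows rose and 1551 fell (10.8% and 11.4% of those tested), of which 191 and 158 (1.4% and 1.16%) changed at least 2-fold and 27 and 15 (0.198% and 0.11%) at least 4-fold. The median absolute log2FC over all tested rows was 0.48 from d1 to d4, 0.22 from d4 to d8 and 0.20 from d8 to d12. The median distance between libraries was 158 from d0 to d1, 99.6 from d1 to d4, 61.9 from d4 to d8 and 48.0 from d8 to d12. Neighbouring steps share libraries, so no correlation between them is given.

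The change at the start of the culture shares no library with the interval and had a different direction for many rows. Across the 13655 rows, log2FC from d0 to d1 and from d4 to d8 gave r = 0.088 (Pearson) and rho = 0.042 (Spearman), over rows that are not independent replicates. Of the 2065 rising rows, 664 (32.2%) had risen and 743 (36%) had fallen from d0 to d1, against 40.7% and 35% of the 11434 rows above the level threshold. Of the 1803 falling rows, 719 (39.9%) had risen and 839 (46.5%) had fallen. The 26 rows that fell at least 4-fold had all fallen in the first day as well. Among the 155 that rose at least 4-fold, 8 had risen and 13 had fallen in it. Only 56 of the 155 had a mean of at least 1 CPM at d0 and 58 at d1, so these 155 rows say little about direction there.

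The change from d1 to d12 also shares no library with d4 and d8, but it spans the interval. It contains the change from d4 to d8, so some agreement follows from the choice of rows. Of the rising rows 1537 (74.4%) were higher at d12 than at d1, against 36.7% of rows above the level threshold, and 200 (9.69%) were lower, against 37.1%. Of the falling rows 1188 (65.9%) were lower at d12 and 276 (15.3%) higher.

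In mice, the shares of rows that changed in the direction seen in culture were above the background, and the shares that changed in the opposite direction were below it. The 4 WD libraries of 24 weeks lay apart from each other on these rows. The falling rows held 22.0% and 22.5% of the counts in replicates A and B but 17.6% and 15.3% in C and D. The rising rows held 12.8%, 13%, 14.6% and 15.5%. In the control libraries the falling rows held 27.2% to 27.6% and the rising rows 12.0% to 12.5%. All 13655 rows tested in culture together held 93.0% to 96.6% of the counts after 24 weeks of WD, against 99.6% to 99.8% with chow. After 8 weeks of CCl4 they held 96.7% to 97.3%, against 99.6% to 99.7% with vehicle. The source of the other counts was not tested. After 24 weeks of WD, 562 of the 1857 rising rows that could be tested were induced (30.3%), against 19.2% of the 11128 tested rows above the level threshold, and 234 were repressed (12.6%), against 18.9%. Of 1789 falling rows, 512 were repressed (28.6%) and 231 induced (12.9%). The count of 512 moved with single libraries of both groups and was lowest without WD replicate C or D. Without C, 296 falling rows were repressed (16.5%, against 11.4% of all rows above the level threshold), and without D 315 (17.6%, against 13.1%), whereas without A it was 524 (29.3%, against 18.4%) and without B 635 (35.5%, against 21.8%). Over the same 4 settings, 24.7% to 31.6% of the rising rows were induced, against 14.7% to 20.0%. Without chow replicate A, B, C or D, 365, 345, 467 or 353 falling rows were repressed. These were 20.4%, 19.3%, 26.1% and 19.7%, against 13.7%, 13.1%, 18.5% and 13.7%. The rising rows were then induced in 26.2% to 27.7%, against 16.1% to 16.7%. The filter on low counts removed 208 rising but 14 falling rows, and a row can pass it through treated libraries alone. With every row kept in the denominator, and those below the filter counted as not called, 27.2% of the 2065 rising rows were induced and 11.3% repressed, 12.8% of the 1803 falling rows were induced and 28.4% repressed, and of all 11434 rows above the level threshold 18.7% were induced and 18.4% repressed. The median WD log2FC over tested rows was 0.18 for rising rows, -0.34 for falling rows and -0.03 for all these rows. Seen from the mice, the 562 rows were 17.4% of the 3239 rows induced by WD, and the 512 were 22.8% of the 2241 rows repressed. Over the rows tested in both experiments, 22.0% of the induced rows rose in culture, beside 15% of all 12377 rows, and 23.0% of the repressed rows fell, beside 14.5%. The agreement across rows was loose, with r = 0.301 (Pearson) and rho = 0.222 (Spearman) over these 12377 rows, given as a description.

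The comparison with CCl4 was made at 8 weeks. Of 1923 rising rows 773 were induced (40.2%), against 20.3% of 11237 rows, and 341 were repressed (17.7%), against 26.9%. Of 1796 falling rows, 790 were repressed (44%) and 222 induced (12.4%). With rows below the filter (142 rising, 7 falling) counted as not called, the rising rows were induced in 37.4% and repressed in 16.5%, the falling rows in 12.3% and 43.8%, and all rows above the level threshold in 19.9% and 26.4%. Median CCl4 log2FC over tested rows were 0.35 for rising, -0.38 for falling and -0.07 for all rows. The 773 rows were 26.3% of the 2944 rows induced by CCl4 and the 790 were 24.3% of the 3246 repressed. Over the 12608 rows tested in both, 29.7% of the induced rows rose in culture, beside 15.3% of all, and 24.5% of the repressed rows fell, beside 14.2%. Across these rows Pearson's r was 0.421 and Spearman's rho 0.292. The balance of induced and repressed rows in CCl4 moved with the scaling. When libraries were scaled by their totals, which shifted the median of all rows by 0.14 on the log2 scale, 3615 rows were induced and 2432 repressed. The rising rows were then induced in 45.8% and the falling rows repressed in 36.1%, against 25.9% and 19.9% of all rows.

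**Figure D4:**
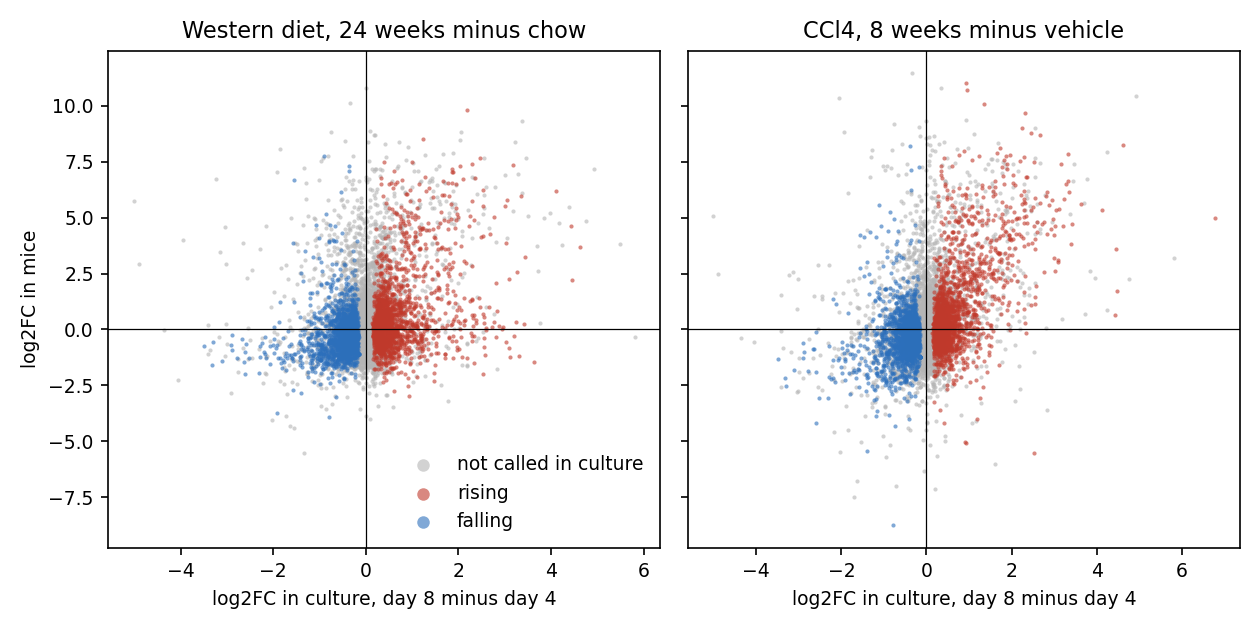
Each point is a row tested in both experiments, with log2FC from d4 to d8 on the horizontal axis and log2FC in mice on the vertical axis, after 24 weeks of WD (left) or 8 weeks of CCl4 (right). Rising rows are red, falling rows blue and other rows grey. Rising rows spread upwards further than downwards, more so for CCl4 (r 0.421) than for WD (r 0.301), and many called rows lie in the quadrants of opposite direction.

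The shares varied along the mouse time courses. Of the rising rows, 20.4%, 32.1% and 30.3% were induced after 12, 16 and 24 weeks of WD, against 13.9%, 23.2% and 19.2% of all rows above the level threshold. After 1, 4 and 8 weeks of CCl4 they were induced in 27.4%, 40% and 40.2%, against 13.5%, 22.9% and 20.3%. The falling rows were repressed in 11%, 42.9% and 28.6% through the WD course, against 7.68%, 27.6% and 18.9%. In the CCl4 course they were repressed in 11.2%, 41.1% and 44%, against 10.8%, 25.4% and 26.9%. After 1 week of CCl4, therefore, the rising rows were above the background and the falling rows near it. The difference between these time points was not tested.

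**Figure D5:**
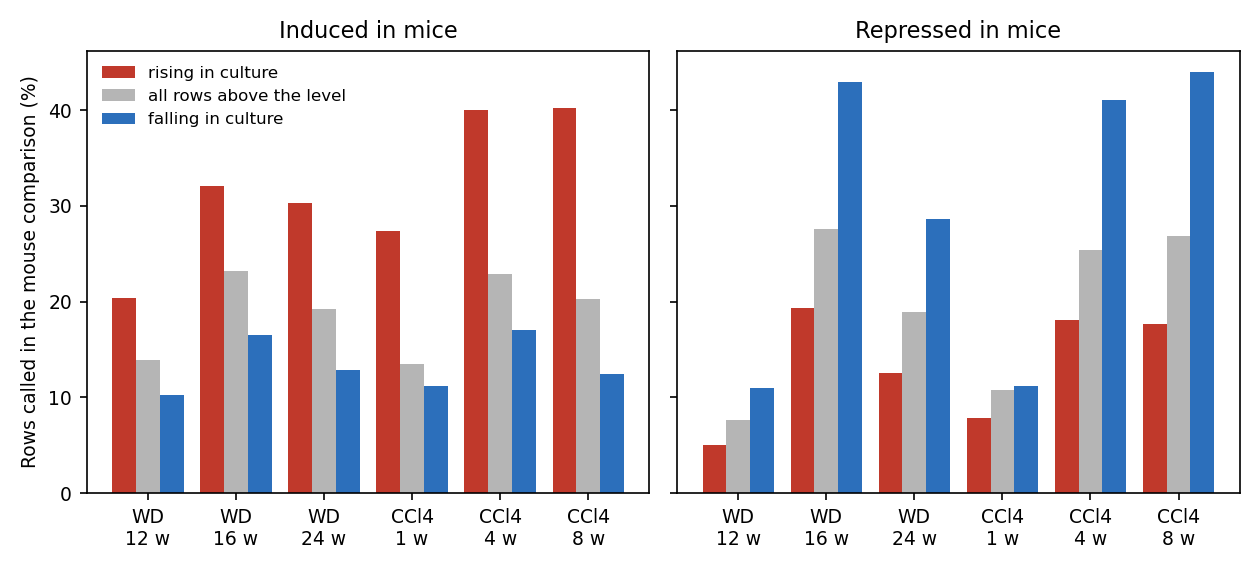
Percentage of rows called as induced (left) or repressed (right) in each mouse comparison with its control group, for the rows rising in culture (red), all tested rows above the level threshold (grey) and the rows falling in culture (blue). For induction the red bar exceeds the grey one at all 6 time points, and for repression the blue bar does, by least at 1 week of CCl4 (11.2% and 10.8%).

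Of 1836 rising rows tested in both mouse experiments, 436 (23.7%) were induced in both and 148 (8.06%) repressed in both, against 12.2% and 13.8% of all 11093 such rows above the level threshold. Of 1786 falling rows, 409 (22.9%) were repressed in both and 128 (7.17%) induced in both. The 3 rows that rose most in all 3 models had at most 3.46 CPM in any control library of the mice, which a choice by log2FC favours. Row 8778 rose from 1.04, 0.418 and 0.422 CPM at d4 to 11.9, 11.2 and 11 CPM at d8 (log2FC 4.12 ± 0.28, FDR 5.54e-09). It was at 0 to 0.478 CPM in chow-fed mice and at 6.86 to 29.6 CPM after 24 weeks of WD, and at 0 to 0.252 CPM with vehicle and 7.76, 8.46 and 10.4 CPM after 8 weeks of CCl4.

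Row 12127 rose from 1.30, 1.53 and 3.10 CPM to 20.0, 19.9 and 20.5 CPM in culture (log2FC 3.35 ± 0.19, FDR 4.86e-10). In mice it went from between 1.46 and 2.56 CPM with chow to between 69.7 and 187 CPM with WD (log2FC 5.98 ± 0.51, FDR 5.11e-07), and from between 0 and 3.30 CPM with vehicle to between 79.6 and 123 CPM with CCl4 (log2FC 6.13 ± 0.51, FDR 8.01e-08). The groups did not overlap in any of the experiments. Row 10719 went from 12.9, 16.6 and 14.8 CPM to 140, 132 and 127 CPM in culture (log2FC 3.17 ± 0.17, FDR 2.75e-10), and its log2FC was 7.33 ± 0.76 with WD and 7.42 ± 0.51 with CCl4. The WD libraries of this row were spread from 32.9 to 157 CPM.

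Among rows lower in all 3 models, row 2615 fell from 37.5, 44.1 and 41.0 CPM to 6.28, 6.54 and 7.23 CPM in culture (log2FC -2.60 ± 0.11, FDR 2.52e-11). It was at 701 to 737 CPM with chow and 56.0 to 293 CPM with WD, and at 468 to 563 CPM with vehicle and 18.6 to 34.4 CPM with CCl4. The WD libraries thus lay between those of CCl4 and the controls. Levels are set side by side here although each experiment was normalized separately. Row 21391 fell from 10.0, 8.09 and 7.88 CPM to 0.856, 2.33 and 2.03 CPM (log2FC -2.30 ± 0.32, FDR 2.88e-05), with a log2FC of -1.93 ± 0.54 in WD and -3.07 ± 0.29 in CCl4. Row 204 fell from 7.67, 8.23 and 8.30 CPM to 1.71, 3.20 and 2.03 CPM (log2FC -1.80 ± 0.22, FDR 6.62e-06), with -1.75 ± 0.35 in WD and -2.88 ± 0.37 in CCl4.

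Other rows moved from d4 to d8 in the direction opposite to that in mice. Row 21467 rose from 19.4, 17.9 and 14.6 CPM at d4 to 40.5, 41.6 and 48.0 CPM at d8 (log2FC 1.33 ± 0.13, FDR 3.96e-07). It fell from between 48.7 and 63.0 CPM to between 9.56 and 36.0 CPM with WD and from between 38.7 and 47.1 CPM to between 5.92 and 8.73 CPM with CCl4. In culture the row had dropped to 4.89 CPM at d1, and its d12 mean of 53.6 CPM was again close to the 54.2 CPM of d0. Row 13628, which had fallen from 34.9 CPM at d0 to 0.473 CPM at d1, rose from 7.80, 6.69 and 7.32 CPM to 19.3, 14.7 and 16.1 CPM (log2FC 1.20 ± 0.16, FDR 1.84e-05) and returned to 5.14 CPM at d12. From d0 to d12 it was lower by a log2FC of -2.75 (FDR 5.44e-11), as it was in mice, with -1.18 ± 0.36 in WD and -3.99 ± 0.49 in CCl4. Its WD and chow libraries overlapped, with 3.35 CPM in the highest of WD and 3.34 in the lowest of chow. Row 23565 rose from 113, 110 and 97.8 CPM to 220, 212 and 223 CPM (log2FC 1.03 ± 0.20, FDR 0.000782), with -1.84 ± 0.26 in WD and -2.36 ± 0.21 in CCl4.

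In the opposite case, row 21191 fell from 26.9, 28.0 and 23.9 CPM to 10.1, 10.0 and 9.90 CPM in culture (log2FC -1.39 ± 0.15, FDR 2.31e-06). It rose from between 53.1 and 68.3 CPM to between 267 and 483 CPM with WD and from between 30.4 and 54.1 CPM to 342, 371 and 361 CPM with CCl4. Row 1864 fell from 15.5, 18.3 and 16.3 CPM to 6.14, 6.69 and 6.72 CPM (log2FC -1.35 ± 0.14, FDR 1.38e-06), was at 13.3 CPM again at d12, and had a log2FC of 2.15 ± 0.35 in WD and 2.47 ± 0.28 in CCl4. Row 10526 fell from 17.9, 17.3 and 14.9 CPM to 7.71, 6.11 and 6.34 CPM (log2FC -1.31 ± 0.16, FDR 5.4e-06), with 3.53 ± 0.46 in WD and 4.36 ± 0.32 in CCl4. The libraries of the groups did not overlap in these 3 rows.

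The difference between the effect in culture and the effect in mice was tested in a joint fit of all 45 libraries. The change from d4 to d8 was higher than that of 24 weeks of WD in 1318 rows and lower in 2270, together 23.9% of the 14983 rows tested. Against 8 weeks of CCl4, it was higher in 1558 and lower in 1764 rows (22.2%), a split that became 1138 and 2204 with library totals. With only the compared groups in the fit, 5052 rows differed from CCl4. These totals include rows called in opposite directions in culture and mice, which differ by their choice. Of the 562 rows that rose in culture and were induced by WD, 296 differed in size, and of the 512 that fell in both, 51 did. For CCl4, 351 of the 773 rows higher in both and 150 of the 790 lower in both differed in size.

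The rows that rose at least 4-fold in culture followed the mouse time courses unequally. Over all 155 rows, and without regard to the filter of the mouse tables, their share of the counts was between 0.017% and 0.025% with vehicle, and between 0.237% and 0.315%, 0.303% and 0.404%, and 0.446% and 0.589% after 1, 4 and 8 weeks of CCl4. At 8 weeks the highest CCl4 library was within the range of the d8 cultures, a comparison of separate tables. In the WD experiment the share was between 0.016% and 0.045% with chow and 0.082% to 0.151%, 0.163% to 0.381% and 0.131% to 0.308% after 12, 16 and 24 weeks. No treated group overlapped its controls in either experiment. A mean of at least 1 CPM was reached by 56 rows with vehicle and 104 at 8 weeks of CCl4, and by 63 with chow and 88 at 24 weeks of WD. Of the 155 rows, 98 passed the filter of the CCl4 experiment, and 77 were induced and 0 repressed at 8 weeks, where 20.3% and 26.9% of all tested rows above the level threshold were. In the WD experiment 87 rows passed, and 27 were induced and 1 repressed at 24 weeks, where 19.2% and 18.9% of all tested rows were. Rows that pass the filter only through treated libraries had to differ, so these counts describe the rows without bearing on their direction. With all 155 rows kept, WD induced 17.4% and repressed 0.645%, against 18.7% and 18.4% of all 11434 rows above the level threshold. CCl4 induced 49.7% and repressed 0 of the 155, against 19.9% and 26.4%. Only 56 of the 155 rows reached 1 CPM with vehicle and 63 with chow, so most could hardly be called repressed. The repressed shares therefore do not bear on direction.

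The 26 rows that fell at least 4-fold had a median of 414 CPM with vehicle and 469 CPM with chow, and 1 of them was under 1 CPM with chow. Their share of the counts was between 1.44% and 1.62% with vehicle and between 1.49% and 1.68% with chow, somewhat above the 1.15% to 1.38% of the d0 culture libraries. It was 0.654% to 0.786% after 8 weeks of CCl4 and 0.415% to 1.23% after 24 weeks of WD, below the controls in all libraries. After 8 weeks of CCl4, 22 of the 26 rows were repressed and 1 was induced, beside 26.9% and 20.3% of all tested rows above the level threshold. After 24 weeks of WD 10 of 25 tested rows were repressed and 0 induced, beside 18.9% and 19.2%. The lowest mouse library, after 16 weeks of WD, was at 0.245%, and the d8 cultures were at 0.022% to 0.024%.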

How the data were processed

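The authors aligned reads to mm10 with STAR, counted exon reads per gene with HOMER on both strands (at most 3 reads per position) and deposited raw read counts without normalization, in a table per experiment. Versions are not given in the sources used here. Columns were assigned by their titles, which match the labels, although the header command names the same source libraries in all 3 tables. A row was taken as the same gene in each table.

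Tests used edgeR 4.0.16 under R 4.3.3 (TMM, filterByExpr, quasi-likelihood test, Benjamini-Hochberg FDR), each experiment fitted separately with every group included. The level is edgeR's average log2CPM (prior count 2). Effect differences used a joint fit of 13 groups. CPM values use TMM-adjusted totals, and log2FC and SE come from the fit. The rows described were the 5 highest and lowest log2FC and gains and losses of CPM among called rows without overlap, the 3 per direction changed most alike or oppositely in both mouse models, and the 5 most abundant. Members, lists and rules were chosen with earlier results of these data known. Replicate letters were not used to pair libraries (correlations of deviations for the same letter 0.025 to 0.047 between d4 and d8). Alternatives included DESeq2 1.42.0, edgeR's exact test, other scalings and filters, and left-out libraries.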

Additional observations from a re-analysis of the deposited data

Results flagged for a closer look

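The changes of consecutive steps, d4 to d8 and d8 to d12, differed by test in 1151 rows with the first step higher and in 577 with the first step lower. The change from d4 to d8 also differed by test from that of 24 weeks of WD, in 1318 rows where culture was higher and 2270 where it was lower, and from that of 8 weeks of CCl4, in 1558 and 1764 rows.

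A gap test for a single extreme library was run on 30 sets of 4 libraries from the mouse experiments, and chance flags about 1 in 20 of them. It marked 4. The total of WD 12 weeks replicate B was 2425443 counts, below the other libraries of its group. The falling rows held 17.51% of the counts in CCl4 4 weeks replicate A, the lowest of its group. The rising rows held 12.49% in chow replicate B, the highest of its group. The rows that rose at least 4-fold held 0.02513% in vehicle replicate D, also the highest. The culture groups, with 3 libraries each, were not tested.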

How the results depend on the processing

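The directions of all described rows held under every setting run on them. With the 6 d4 and d8 libraries alone (or, for the differences, only the compared groups), 3330 rows rose and 3431 fell, 4351 differed between the steps and 5052 between culture and CCl4. Without the d0 libraries, an alternative chosen after seeing the data, 3178 rose, 3133 fell and 4100 differed between the steps. Both settings leave out the d0 libraries, whose spread was the largest of the culture. With a change of at least 2-fold required, 479 rows rose and 172 fell. Of these, 115 of 337 tested rising rows were induced at least 2-fold with WD (34.1%, against 10.2% of all rows above the level threshold) and 48 of 168 falling rows repressed (28.6%, against 6.63%). With CCl4 it was 229 of 372 (61.6%, against 10.6%) and 87 of 170 (51.2%, against 9.95%). The filter had removed 142 (WD) and 107 (CCl4) of the 479 rising rows, and 4 and 2 of the 172 falling rows. With every row kept and no mouse fold required, WD induced 24.8% of the 479, against 18.7% of all rows above the level threshold. CCl4 induced 49.7%, against 19.9%. The 172 falling rows were then repressed in 35.5% and 61.6%, against 18.4% and 26.4%. Leaving out 1 library gave 1599 to 1706 rising and 1274 to 1389 falling rows, and 1002 to 1419 rows that differed between the steps. Leaving out 1 mouse library, an alternative chosen after seeing the data, gave 296 (without WD replicate C at 24 weeks) to 635 falling rows repressed with WD, against 512, and 462 to 595 rising rows induced. With CCl4 it gave 694 to 791 and 689 to 760. Other counts, under DESeq2 (2319 rising, 1679 falling), edgeR's exact test (2268 and 2020), DESeq2 size factors (2238 and 1583), library totals (2004 and 1837), no filter on low counts (1865 and 1784) or no threshold on the level (2411 and 1944), were within 1.5 times those reported. With the replicate letter as a block, 2012 rows rose and 1719 fell, of which 1980 and 1678 were shared with the calls reported. Deviations of same-letter libraries of d4 and d8 correlated by 0.025 to 0.047, and those of other-letter pairs of the culture by -0.114 to 0.108. The 3 same-letter values are too few to exclude a shared preparation. Depth limits rows near the floor of 0.381 to 0.436 CPM, and the lowest d4 or d8 values of several strongly changed rows lie there.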
